A study of Mus musculus with 36 samples.

Results

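The genes described here mark the rare non-neuronal sensory and ion-transporting cells of the nasal epithelia: Trpm5, Pou2f3, Chat, Il25, Gnat3, Tas1r3, Avil, Ascl3, Foxi1 and Cftr. These 10 genes were taken by name from a list of microvillar, solitary chemosensory and ionocyte genes, out of 24755 genes with a value in the study. All 10 were found in the files, each as a single RefSeq transcript. Their levels were followed in the main olfactory epithelium (MOE), the vomeronasal organ (VNO) and the olfactory bulb (OB) of C57BL/6 mice aged 6 months. Females and males had lived since weaning at 3 weeks, 4 animals to a cage, either with their own sex alone (groups SF and SM) or together with the other sex (groups CF and CM). Each tissue gave 12 libraries, 3 for each of the 4 groups, and each library came from RNA pooled over mice, 2 by the design text, whereas the study's methods give a larger pool. P-values measure the spread between pools. The 3 tissues were dissected from the same mice, so MOE, VNO and OB libraries share animals, and the tissue tests treat them as independent. Values are FPKM, fragments per length of transcript and per total of mapped fragments, so that levels can be compared between genes of different length.

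Several sparse cell types share these genes. Microvillar cells, which carry short apical projections instead of sensory cilia, lie among the sensory neurons and supporting cells of the olfactory epithelium. One class of them is related to the tuft cells of gut and airway. Tuft cells and solitary chemosensory cells use the signalling chain of taste cells, in which a taste receptor acts through the G protein subunit gustducin (Gnat3), a phospholipase and inositol trisphosphate receptors to open the cation channel Trpm5. They release acetylcholine, made by choline acetyltransferase (Chat), and interleukin 25 (Il25), a cytokine that starts type 2 immunity. Pou2f3 is the POU-domain transcription factor required to form them, and Avil encodes advillin, an actin-binding protein of their apical bundle. Ionocytes are a separate kind of microvillar cell, specified by the forkhead factor Foxi1, rich in the chloride channel Cftr and proton pumps, and marked in the nose by the basic helix-loop-helix factor Ascl3. Tas1r3 is the shared subunit of the sweet and umami taste receptors.

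On the mm9 build used in the files, the ionocyte genes lay at chr7:116870979-116875246 (Ascl3), chr11:34104341-34108089 (Foxi1) and chr6:18120687-18272769 (Cftr). The sensing genes lay at chr7:150257434-150280547 (Trpm5), chr5:17468388-17525486 (Gnat3) and chr4:155233379-155237462 (Tas1r3). Pou2f3 lay at chr9:42932022-43013838 and Avil at chr10:126437765-126458050. Chat (chr14:33221389-33279095) and Il25 (chr14:55551532-55554673) shared a chromosome. The Chat locus overlaps Slc18a3, the vesicular acetylcholine transporter, and the Tas1r3 locus overlaps Dvl1. Slc18a3 itself averaged at most 0.00695 FPKM in any tissue.

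Promoter sequences are shown for Ascl3 and Avil, the members with a motif match, and for Trpm5 and Gnat3, which differed between MOE and VNO in opposite directions. Windows of 250 bases ending just before the annotated start were taken from RefSeq on GRCm38.p6, whose coordinates differ from those of mm9, and 8 of the 10 genes had one. Pou2f3 and Il25 had no window in the table used. The windows were searched on both strands for ATGCAAA, the core of the octamer that POU factors bind, and for TGTTTAC, a forkhead core. Capitals in the sequences below, written 5′ to 3′ in the direction of the gene, mark matches to the octamer core or its complement TTTGCAT.
Ascl3 (chr7:109731733-109731982, minus strand): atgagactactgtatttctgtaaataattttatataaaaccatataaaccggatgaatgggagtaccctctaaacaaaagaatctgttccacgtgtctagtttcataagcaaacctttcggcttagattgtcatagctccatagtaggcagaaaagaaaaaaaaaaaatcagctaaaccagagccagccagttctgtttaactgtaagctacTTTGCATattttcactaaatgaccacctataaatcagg
Avil (chr10:127000459-127000708, plus strand): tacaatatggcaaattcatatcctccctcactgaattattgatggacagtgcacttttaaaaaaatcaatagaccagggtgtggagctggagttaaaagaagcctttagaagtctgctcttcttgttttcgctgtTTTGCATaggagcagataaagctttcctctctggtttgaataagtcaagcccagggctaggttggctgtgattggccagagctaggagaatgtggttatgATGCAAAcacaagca
Trpm5 (chr7:143094643-143094892, minus strand): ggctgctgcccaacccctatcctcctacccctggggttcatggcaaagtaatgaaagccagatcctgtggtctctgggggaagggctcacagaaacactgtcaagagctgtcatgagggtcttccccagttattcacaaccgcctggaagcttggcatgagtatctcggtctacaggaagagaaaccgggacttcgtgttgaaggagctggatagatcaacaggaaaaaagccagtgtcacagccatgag
Gnat3 (chr5:17962320-17962569, plus strand): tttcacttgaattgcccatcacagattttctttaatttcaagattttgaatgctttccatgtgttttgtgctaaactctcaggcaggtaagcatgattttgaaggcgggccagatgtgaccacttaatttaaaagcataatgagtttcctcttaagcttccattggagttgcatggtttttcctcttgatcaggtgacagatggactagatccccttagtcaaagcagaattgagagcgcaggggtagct
The octamer core stood in 2 of the 8 windows, those of Ascl3 and Avil, against 4.12% of 32851 promoters. The Ascl3 window held 1 match, on the strand opposite to the gene, with its first base 38 bases before the start. The Avil window held 2, at 115 bases before the start on the opposite strand and at 15 bases before it on the strand of the gene. The windows of Trpm5 and Gnat3 held none. The forkhead core was in 0 of 8 windows and in 3.17% of all promoters. These are letter matches, not sites of binding.

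The number of fragments behind a value limited what could be seen of such rare transcripts. It was estimated from the confidence limits in the files, where low values fell near whole numbers. For abundant genes the limits can imply fewer fragments than were counted, so the sums are no measure of full depth and need not rank the libraries by it. They came per library to 3016520 to 5902160 for MOE (median 5323150), to 3373400 to 6779890 for VNO (median 5500980) and to 3592960 to 6437260 for OB (median 6012840). MOE-CM3, the MOE library with the lowest sum, also had the lowest MOE value of Ascl3, Cftr, Trpm5, Avil and Chat. By the study's alignment statistics MOE-CM3 had the most input read pairs of the MOE libraries, but the smallest share of reads aligned. The summed level of 4 olfactory sensory neuron genes ran from 906 to 1584 FPKM in MOE and from 87.9 to 129 in VNO, and that of 4 vomeronasal neuron genes from 15.6 to 21.5 in MOE and from 90.8 to 116 in VNO. In bulk tissue fewer cells of a type and less RNA per cell cannot be told apart.

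In MOE the ionocyte genes had the highest levels of the set. Over the 12 MOE libraries Ascl3 ranged from 12.04 to 25.2 FPKM, with a median of 20.1. VNO libraries held 1.74 to 4.27, with a median of 3.24, and OB libraries 0 to 0.169. Every MOE library lay above every VNO library, and every VNO library above every OB library. The mean in MOE was 19.6 ± 3.60 (SD, n = 12), 6.22-fold that in VNO (3.15 ± 0.825), a log2 difference of 2.47 ± 0.11 (SE) on the log2(FPKM + 0.5) scale with an adjusted p of 1.48e-18 in limma. In OB each library held fewer than 3 fragments of Ascl3, the floor used here for a detected level, so that no fold against OB is given.

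Foxi1 behaved in the same way at a lower level. Its MOE values lay between 1.13 and 1.77 FPKM (median 1.48) and its VNO values between 0.105 and 0.414 (median 0.243), and it was listed at 0 in 11 of 12 OB libraries. The MOE and VNO ranges did not overlap. The mean of 1.44 ± 0.225 in MOE was 5.69-fold that of 0.254 ± 0.0976 in VNO, with a log2 difference of 1.37 ± 0.07 (SE; adjusted p = 2.06e-17 in limma).

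For Cftr the ratio between the epithelia was closer to 1. It ran from 1.99 to 4.56 FPKM in MOE (median 3.82), from 2.19 to 3.40 in VNO (median 2.53) and from 0.0602 to 0.199 in OB (median 0.119). The MOE and VNO ranges overlapped, with 9 MOE libraries above every VNO library and 1, MOE-CM3, below every VNO library. The ratio of means was 1.37 (3.63 ± 0.662 against 2.65 ± 0.368), and the log2 difference of 0.38 ± 0.07 (SE) passed the threshold in limma (adjusted p = 3.45e-05). Over all genes tested the median log2 difference between MOE and VNO was 0.15, and after scaling each library to its upper quartile, which brought that median to -0.02, the difference in Cftr was 0.19. Cftr was 30.2-fold higher in MOE and 22.05-fold higher in VNO than in OB.

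The ionocyte genes stood in another order in the 2 epithelia. Ascl3 exceeded Cftr in 12 of 12 MOE libraries and in 7 of 12 VNO libraries, where the ranges of both genes overlapped. Among the 9 members other than Tas1r3, Foxi1 held rank 3 in MOE, just above Trpm5 with overlapping ranges, and rank 6 in VNO.

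**Figure D1:**
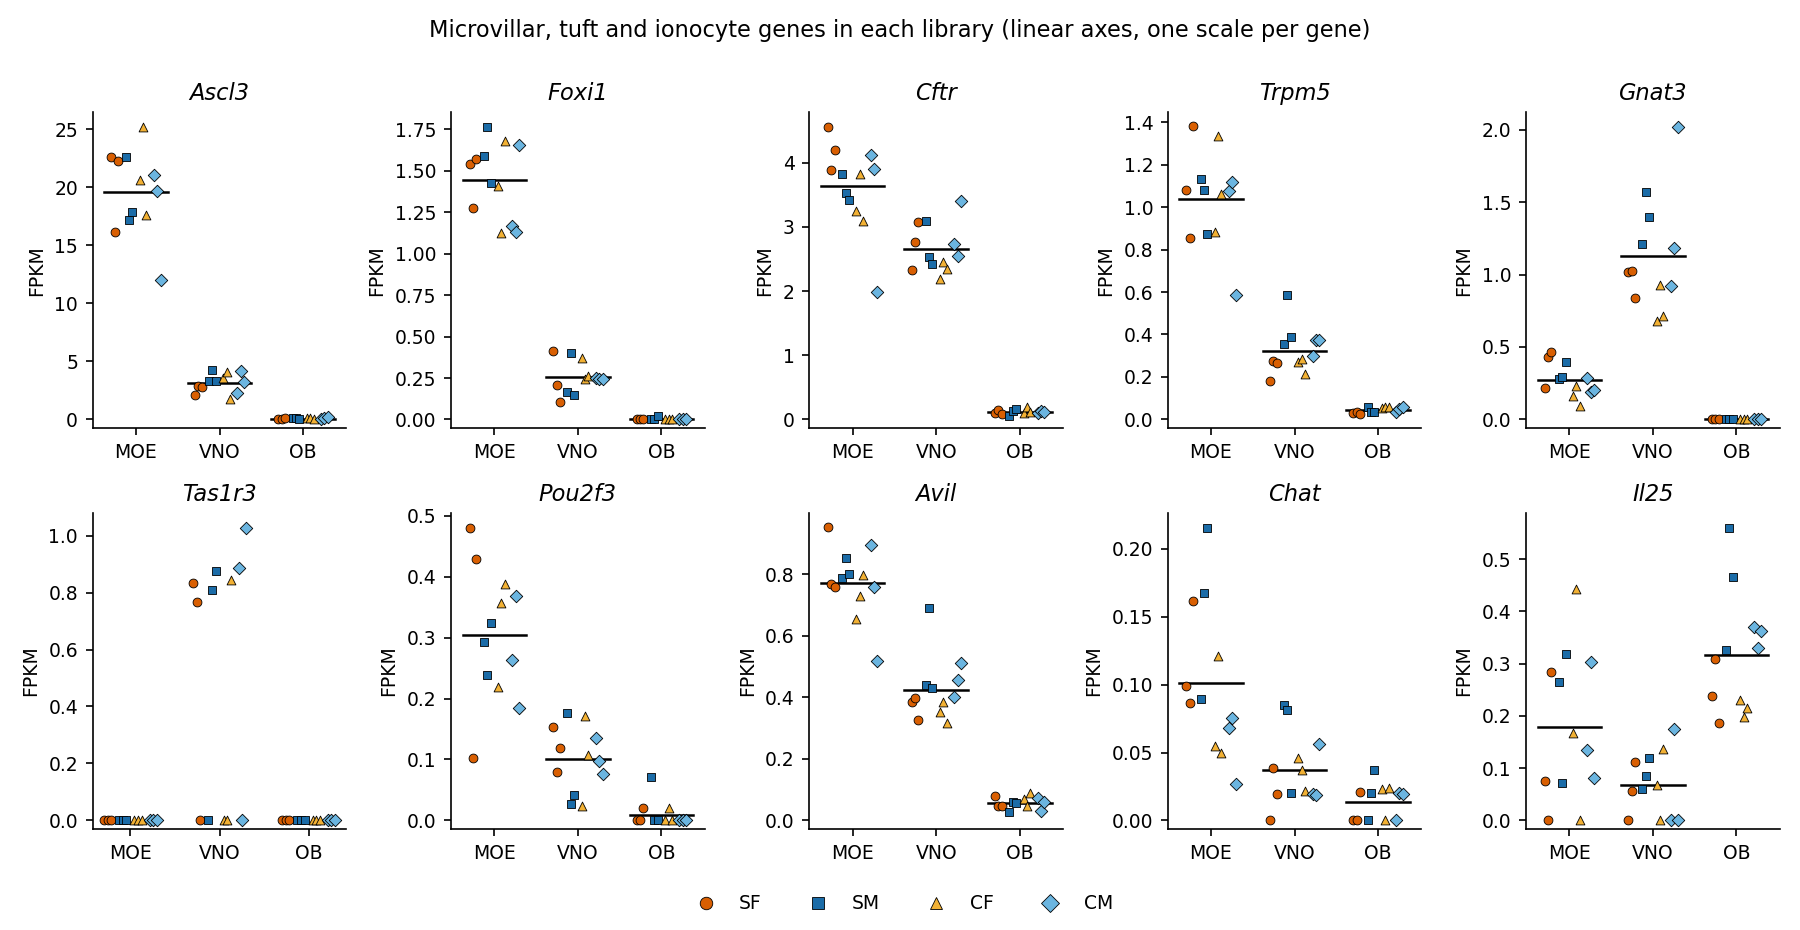
FPKM of each of the 10 genes in every library of MOE, VNO and OB on linear axes, with a scale of its own per gene, symbols for the groups SF, SM, CF and CM and a black bar for the mean of 12 libraries (no bar for Tas1r3). Ascl3 and Foxi1 were highest in MOE without overlap, Gnat3 was highest in VNO without overlap, the mean of Il25 was highest in OB, and Tas1r3 was listed above 0 in 7 VNO libraries.

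Trpm5, the cation channel at the end of the taste pathway, followed the MOE-rich pattern. MOE libraries held 0.587 to 1.38 FPKM (median 1.08, 36.2 to 101 fragments), VNO libraries 0.181 to 0.588 (median 0.291, 9.59 to 36.2 fragments) and OB libraries 0.0248 to 0.0609 (median 0.0422, 1.99 to 5 fragments). The MOE library MOE-CM3 lay just below the highest VNO library, VNO-SM2, and the other 11 MOE libraries lay above all VNO libraries. The mean in MOE (1.04 ± 0.216) was 3.22-fold that in VNO (0.322 ± 0.106) and 23.3-fold that in OB (0.0445 ± 0.0132). The filter on a mean FPKM of 0.5 over the 36 libraries kept only Ascl3, Foxi1 and Cftr among these genes, so the other members were tested in limma without that filter. There the log2 difference of Trpm5 between MOE and VNO was 0.90 ± 0.06 (SE; adjusted p = 1.99e-13). At levels near or below the added 0.5, a log2 difference is smaller than the ratio of means implies.

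Gnat3 went the other way. Gustducin transcripts ranged from 0.681 to 2.02 FPKM in VNO (median 1.02, 14 to 49.3 fragments) and from 0.0910 to 0.468 in MOE (median 0.254, at most 11 fragments), and were listed at 0 in all 12 OB libraries. The lowest VNO library was above the highest MOE library. The VNO mean was 4.15-fold that of MOE (1.12 ± 0.386 against 0.271 ± 0.114), and the log2 difference, MOE minus VNO, was -1.06 ± 0.07 (SE; adjusted p = 3.30e-14 in limma). Gnat3 exceeded Trpm5 in 12 of 12 VNO libraries and in 0 of 12 MOE libraries. The ratio of the mean of Gnat3 to that of Trpm5 was 3.49 in VNO and 0.261 in MOE.

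**Figure D2:**
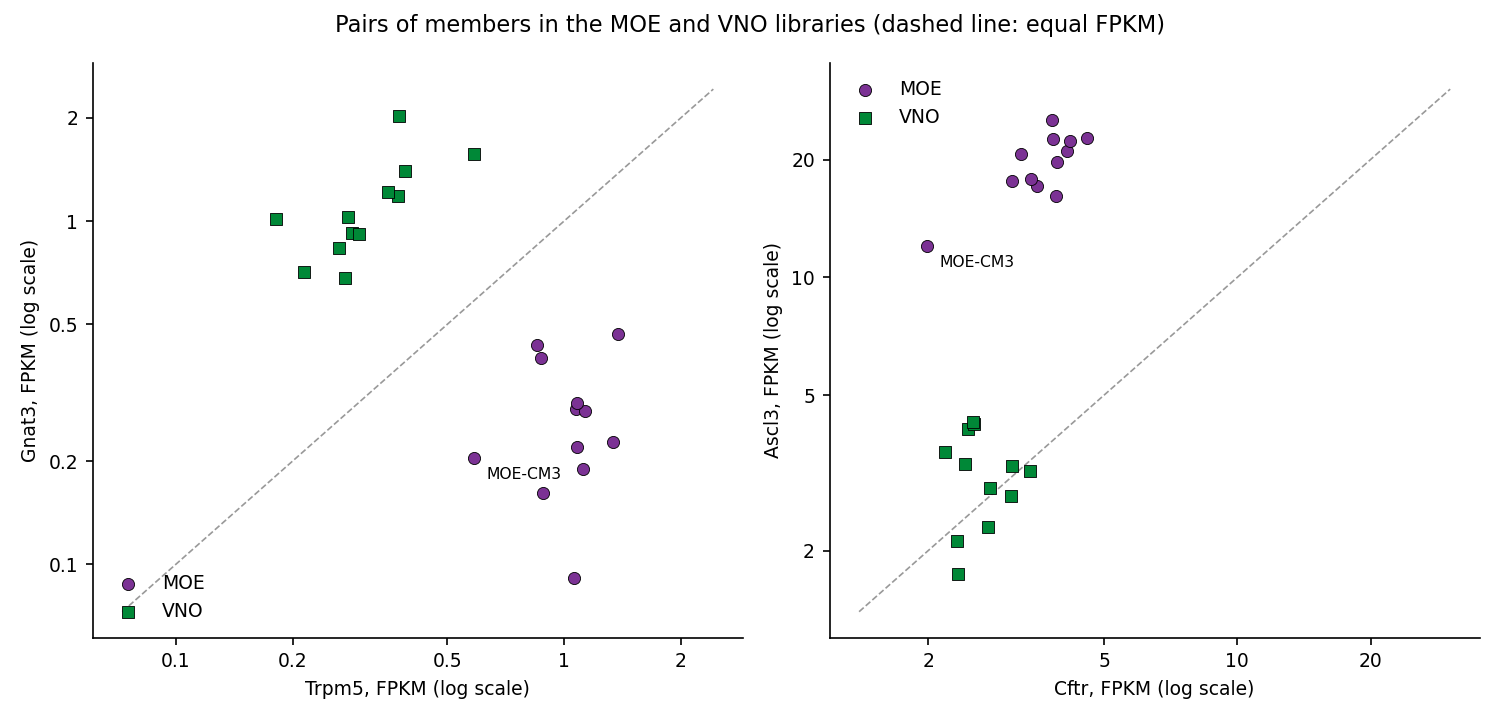
Left, Gnat3 against Trpm5, and right, Ascl3 against Cftr, in FPKM on log axes, with one symbol per MOE or VNO library and a dashed line of equal FPKM. All 12 VNO libraries lay above the line for Gnat3 and all 12 MOE libraries below it, while for Ascl3 and Cftr the MOE libraries lay above the line and 7 of 12 VNO libraries did.

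Tas1r3 was listed above 0 in 7 of 12 VNO libraries. It was listed at 0 in all 12 MOE and all 12 OB libraries. In VNO it was listed at 0 in SF3, SM1, CF1, CF2 and CM2, and at 0.834 and 0.768 FPKM in SF1 and SF2, 0.810 and 0.876 in SM2 and SM3, 0.843 in CF3, and 0.885 and 1.03 in CM1 and CM3. No library lay between 0 and 0.768, although the positive values rested on up to 66.8 fragments. An entry of 0 in such a file can be a failed estimate, so no fold or test is given for Tas1r3, and the counts of members below cover the other 9.

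The 2 genes of tuft cell identity were both higher in MOE. Pou2f3 ranged from 0.103 to 0.481 FPKM in MOE (median 0.309), from 0.0231 to 0.176 in VNO (median 0.102) and from 0 to 0.0706 in OB, where 9 libraries were listed at 0. The lowest MOE value, that of SF2, fell inside the VNO range and the other 11 lay above it. The fragments of Pou2f3 ran from 5 to 20 in MOE and from 1 to 9 in VNO, where SM2, SM3 and CF1 were under the floor of 3. The means of 0.304 ± 0.108 and 0.1005 ± 0.0528 differed by 0.41 ± 0.06 (SE) on the log2 scale (adjusted p = 1.21e-06 in limma). Avil ranged from 0.517 to 0.953 in MOE (median 0.778), from 0.317 to 0.691 in VNO (median 0.399) and from 0.0256 to 0.0904 in OB (median 0.0575). Its MOE mean of 0.773 ± 0.112 was 1.82-fold that of VNO (0.425 ± 0.1001), with a log2 difference of 0.46 ± 0.05 (SE; adjusted p = 3.98e-10 in limma).

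The output genes Chat and Il25 were at the edge of detection. Chat reached at most 0.216 FPKM in MOE (median 0.0879), 0.0852 in VNO and 0.0368 in OB. Its fragments ran from 1 to 9.59 in MOE, from 0 to 4 in VNO and from 0 to 1.99 in OB. All 12 OB libraries were thus under 3 fragments. Its log2 difference between MOE and VNO was 0.16 ± 0.03 (SE; adjusted p = 2.66e-05 in limma), with 7 MOE libraries above the VNO range. Between VNO and OB it was 0.06 ± 0.03 (adjusted p = 0.0604), and this call passed the threshold under some of the other settings.

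Il25 was the only member that was higher in OB than in both epithelia. It was 0.186 to 0.560 FPKM in OB (median 0.317, 3 to 9 fragments), 0 to 0.443 in MOE (median 0.151, at most 6 fragments) and 0 to 0.175 in VNO (median 0.0634, at most 3 fragments). Every OB library lay above every VNO library, while the OB and MOE ranges overlapped. The log2 difference was -0.28 ± 0.09 (SE) for MOE minus OB and -0.52 ± 0.09 for VNO minus OB (adjusted p = 0.00588 and 6.89e-06 in limma). MOE exceeded VNO by 0.24 ± 0.09 (adjusted p = 0.0197 in limma), a call that was lost when either MOE-SF3 (0.19, adjusted p = 0.0504) or MOE-CF2 (0.18, adjusted p = 0.0517) was left out.

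Counted together, 3 of the 3 members that passed the filter were higher in MOE than in VNO, where 48.6% of all genes tested were higher in MOE and 33.9% lower. Foxi1 passed the filter only through its MOE level (1.44 FPKM, against 0.254 in VNO and 0.00161 in OB). Its calls of higher in MOE therefore partly follow from the filter. Without the filter 8 of 9 members were higher in MOE than in VNO and 1, Gnat3, was lower, against 38.3% and 32% of all genes. Against OB, 8 of 9 were higher and 1, Il25, lower in MOE without the filter (40.2% and 32.3% of all genes), and all 3 that passed it were higher (45.7% and 39.3%). In VNO 7 of 9 were higher than in OB, 1 was lower and 1 was not called without the filter (35.4% and 36.5%), and all 3 that passed it were higher (37.8% and 48%). The median log2 difference of the 9 members was 0.41 for MOE minus VNO, 1.19 for MOE minus OB and 0.58 for VNO minus OB, beside 0.01, 0.02 and 0.00 over all genes. The first and second of these comparisons share the MOE libraries, and the last shares a tissue with each. With the libraries scaled to their upper quartile the share of MOE against VNO calls that were higher in MOE moved from 58.9% to 48.1% over the genes that passed the filter. In the fit without the filter the 9 members kept their directions and calls under this scaling.

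Other ionocyte genes also stood higher in MOE. Without the filter 12 of 17 were higher in MOE than in VNO, 2 were lower and 3 were not called, with a median log2 difference of 0.94. Over all genes 38.3% were higher and 32% lower in that fit. Coch, which encodes the secreted protein cochlin, was 106 ± 16.6 FPKM in MOE and 15.9 ± 2.00 in VNO. The proton pump subunits Atp6v1b1 and Atp6v0a4 were 19.2 ± 2.28 and 6.32 ± 0.853 in MOE against 9.19 ± 1.30 and 3.04 ± 0.451 in VNO. Stap1, a signalling adaptor, was 10.6 ± 1.66 against 1.54 ± 0.379, and Bsnd, the barttin subunit of kidney-type chloride channels, was 1.26 ± 0.198 against 0.168 ± 0.0665. Slc12a2, a sodium, potassium and chloride cotransporter that many other cells use, differed less (62.9 ± 8.43 against 50.9 ± 3.86). The 2 genes that were lower in MOE were the receptor P2ry14 (1.499 ± 0.317 against 7.92 ± 0.989) and the transcription factor Tfcp2l1 (2.71 ± 0.534 against 8.40 ± 0.634). Atp6v1c2, another pump subunit, was 8.66 to 18.1 FPKM in MOE but was listed at 0 in all VNO libraries except SF1 (8.34), so its fold is not given, although it counts among the 12.

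The partners of Trpm5 and Gnat3 in taste signalling were mostly higher in VNO or not called. Of 41 genes tested without the filter 1 was higher in MOE, 17 were lower and 23 were not called, with a median log2 difference of -0.04. The shares of all genes were 38.3% higher and 32% lower. Most of these levels were very low, with a median over 43 genes of 0.00653 FPKM in MOE and 0.0221 in VNO. With the filter only 3 genes were tested, of which 1 was higher and 2 were lower in MOE. Itpr3, the inositol trisphosphate receptor of taste cells, was 1.35 ± 0.234 FPKM in MOE and 4.84 ± 0.444 in VNO. Plcb2, the phospholipase, was 0.213 ± 0.0572 against 0.671 ± 0.0985, and Trpm4, a related cation channel, was 2.57 ± 0.524 against 4.68 ± 0.445. Itpr3 and Trpm4 stood far above Trpm5 in VNO (0.322), and which cells expressed them was not tested. Tas1r1, the partner of Tas1r3 in the umami receptor, was 0.0105 ± 0.0222 against 0.434 ± 0.153. The exception was Gng13, a G protein subunit that olfactory sensory neurons also use, at 629 ± 125 in MOE and 22.4 ± 5.50 in VNO. Among the bitter receptors Tas2r108 had the highest level, at 0.647 ± 0.275 in MOE and 0.526 ± 0.251 in VNO (0 to 0.954 over the MOE libraries, log2 difference 0.15 ± 0.14, adjusted p = 0.381 in limma).

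**Figure D3:**
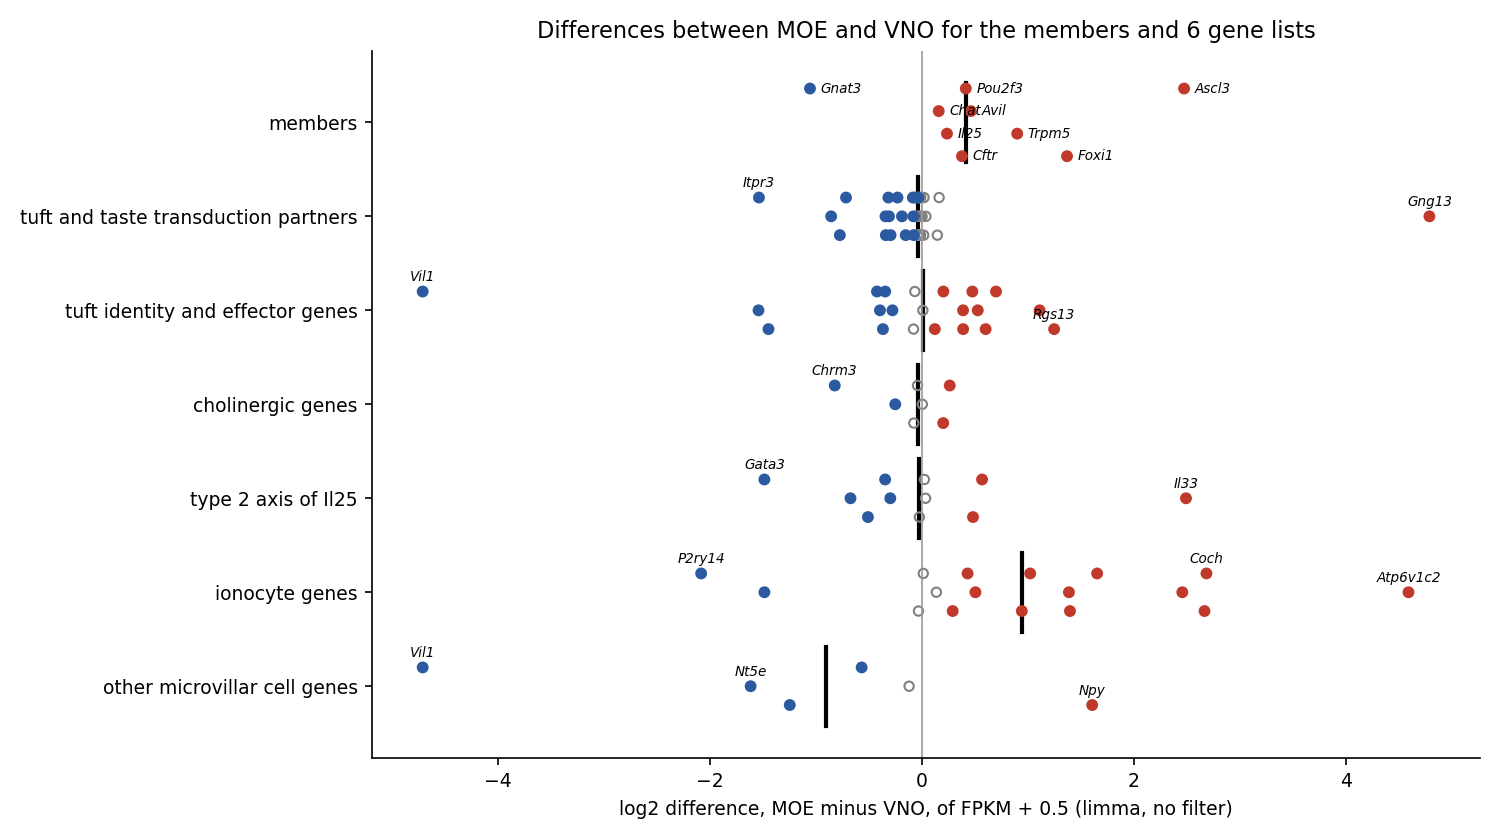
Log2 difference of FPKM + 0.5, MOE minus VNO, for 9 members and the genes of 6 related lists in the limma fit without a filter, with filled points for adjusted p under 0.05 (red higher in MOE, blue lower), open points for the rest and a black bar for the median. The ionocyte list has its median at 0.94 and the transduction partners at -0.04, with Gng13 alone far to the right.

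Genes of tuft cell identity and effector function were split, with 10 of 21 higher in MOE, 8 lower and 3 not called. Beside this, 38.3% of all genes were higher and 32% lower. Among those higher in MOE were Rgs13, a regulator of G protein signalling (1.14 ± 0.213 FPKM in MOE against 0.190 ± 0.0840 in VNO), Sh2d7 (0.892 ± 0.212 against 0.139 ± 0.0566), the transcription factor Spib (0.555 ± 0.164 against 0.258 ± 0.112) and the keratin Krt18 (147 ± 21.6 against 101 ± 9.24). Among those lower in MOE were Alox5ap, which serves leukotriene synthesis (3.05 ± 0.582 against 9.14 ± 1.30), and the kinase Bmx (1.89 ± 0.239 against 6.44 ± 0.530). Villin (Vil1), an actin-bundling protein of microvilli, was listed at 0 in every MOE and OB library and at 9.70 to 15.3 FPKM in VNO. Its locus overlaps Usp37, and no fold is given for it, although it counts among the 8. Alox5ap, Bmx and Vil1 are also used by other cells, such as leukocytes and brush-bordered epithelia. Which cells expressed the listed genes was not tested, those higher in MOE included, of which Krt18 stood far above Trpm5.

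The remaining lists had no common direction in the same fit, where 38.3% of all genes were higher in MOE than in VNO and 32% lower. Of 7 cholinergic genes, 2 were higher and 2 lower in MOE than in VNO. Ache, the acetylcholine esterase, was 0.588 ± 0.230 FPKM in MOE against 0.399 ± 0.157 in VNO, with 6.04 ± 0.558 in OB. The esterase Bche was 1.32 ± 0.234, 1.09 ± 0.246 and 0.816 ± 0.125, and the muscarinic receptor Chrm3 was 0.986 ± 0.239, 2.11 ± 0.276 and 3.05 ± 0.413. In the type 2 axis around Il25, 3 of 11 genes were higher and 5 lower in MOE. The alarmin Il33 was 57.3 ± 9.33 in MOE against 9.68 ± 1.04 in VNO, and Il13ra1 was 14.4 ± 2.45 against 9.49 ± 1.11, whereas Il17rb, the receptor chain for interleukin 25, was 0.404 ± 0.0891 against 0.946 ± 0.188 and Rora was 3.77 ± 0.431 against 5.56 ± 0.417. Of 6 other microvillar genes 1, Npy, was higher in MOE and 4 were lower, Vil1 with its entries of 0 among them. The others included the ectoenzyme Nt5e (3.83 ± 0.755 against 12.6 ± 0.565) and the surface protein Cd24a (59.0 ± 15.5 against 137 ± 17.2). The membrane linker Ezr was not called (34.6 ± 5.43 against 37.5 ± 4.72).

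The same lists were set against OB in the fit without the filter, where 40.2% of all genes were higher and 32.3% lower in MOE, and 35.4% higher and 36.5% lower in VNO. Of 17 ionocyte genes 16 were higher and 0 lower in MOE, and 12 were higher and 2 lower in VNO, with medians of 1.80 and 0.70. Of 21 tuft identity genes 16 were higher and 3 lower in MOE, and 13 were higher and 3 lower in VNO. Of 41 transduction partners 6 were higher and 1 lower in MOE, and 17 were higher and 1 lower in VNO. The cholinergic list had 1 of 7 genes higher and 4 lower in MOE, and 2 higher and 4 lower in VNO. The type 2 axis had 6 of 11 higher and 1 lower in MOE, and 8 higher and 0 lower in VNO. Of 6 other microvillar genes 2 were higher and 3 lower in MOE, and 4 were higher and 2 lower in VNO.

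Markers of other epithelial cells also differed between the dissected tissues. Over all libraries the summed level of 4 respiratory secretory genes was 3082 to 5925 FPKM in MOE and 905 to 1910 in VNO, with Scgb1a1 at 0 in MOE and OB, that of 4 sustentacular genes 779 to 1389 and 31.7 to 61.1, that of 4 ciliated cell genes 37.6 to 66.9 and 31.3 to 54.4, and that of 3 basal cell genes 15.1 to 22.8 and 13.4 to 29.8. In OB the corresponding sums were at most 5.82, 5.40, 2.38 and 0.283. No other marker of these lists was at 0 throughout MOE or VNO, and their part in the tissue differences was not tested.

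Between the sexes and housings the study asked whether the company of the other sex alters the olfactory tissues. Over 7 comparisons in each tissue, none of the members passed an adjusted p of 0.05 in limma. With the filter applied per tissue, 5 members could be tested for MOE, 3 for VNO and 0 for OB. In MOE the smallest adjusted p among them was 0.718 and 0 of 35 member comparisons had an unadjusted p under 0.05. In VNO the smallest was 0.381, with 2 of 21 under 0.05. Few genes of any kind were called. In MOE the share called was 0.0944% for SF against SM, 0.0436% for CF against CM, 0.0363% for SF against CF, 0.0436% for SM against CM, 0.0291% for the interaction, 0.0727% for the mean sex difference and 0.102% for the mean housing difference. In VNO it was 0.0722% for SF against SM, 0.0433% for CF against CM, 0.123% for the mean sex difference and 0% for the other 4 comparisons.

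Without the filter the members again gave 0 calls, with the smallest adjusted p at 0.428. Over all genes the share called for the mean sex difference was 0.0389% in MOE, 0.0763% for VNO and 0.0305% for OB. For the mean housing difference the shares were 0.0292%, 0.00477% and 0% in the same order. An unadjusted p under 0.05 was reached in 13 of 182 member comparisons (7.14%), beside 4.87% of those of all genes. In MOE the group means of Ascl3 were 20.4 ± 3.65 FPKM in SF, 19.2 ± 2.96 in SM, 21.1 ± 3.85 in CF and 17.6 ± 4.86 in CM (SD, n = 3 each). Those of Foxi1 were 1.46 ± 0.162, 1.59 ± 0.170, 1.40 ± 0.276 and 1.32 ± 0.293 in the same order, and those of Cftr 4.22 ± 0.337, 3.59 ± 0.215, 3.39 ± 0.380 and 3.34 ± 1.17. For Cftr the SF libraries lay above all SM and all CF libraries, without passing the test. Of the 6 related lists, 0 genes were called by limma in any of these comparisons, with an unadjusted p under 0.05 in 40 of 833 tests with the filter and 99 of 1820 without it. Gad1, one of 4 bulb neuron markers, was called in VNO, where females were lower than males by 0.66 on the log2 scale (adjusted p = 0.0133 in limma).

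Among the members the smallest p-values in VNO belonged to Trpm5 and Gnat3 of the sensing pathway, both with lower means in females. Trpm5 was 0.181, 0.277 and 0.264 FPKM in SF and 0.353, 0.588 and 0.389 in SM, 0.272, 0.285 and 0.214 in CF and 0.297, 0.373 and 0.375 in CM. In both housings every female library lay below every male library. The means were 0.249 ± 0.0415 in females and 0.396 ± 0.0995 in males, over 6 libraries of each sex. This was a log2 difference of -0.25 ± 0.07 (SE; adjusted p = 0.428 in limma). Gnat3 was 1.01, 1.03 and 0.835 in SF and 1.21, 1.57 and 1.40 in SM, which did not overlap, and 0.681, 0.925 and 0.712 in CF and 0.919, 1.18 and 2.02 in CM, which did. Its means were 0.866 ± 0.148 in females and 1.38 ± 0.381 in males. The log2 difference of -0.45 ± 0.13 (SE) had an adjusted p of 0.381 in limma.

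Avil in VNO was 0.386, 0.396 and 0.326 FPKM in SF, 0.442, 0.691 and 0.432 in SM, 0.354, 0.385 and 0.317 in CF and 0.402, 0.457 and 0.510 in CM. Females were below males in both housings here too (log2 difference -0.19 ± 0.07, adjusted p = 0.644 in limma). Over all genes with a value above 0, such a separation with females lower was found for 0.549% in VNO, 0.0973% in MOE and 0.585% in OB. The members that showed it were Trpm5 and Avil in VNO, none in MOE and Il25 in OB. In VNO the summed level of 3 nasal gland genes was likewise lower in every female library (32.3 to 37.3 FPKM) than in any male library (38.4 to 48.7), as was that of 4 bulb neuron genes (0.733 to 1.38 against 1.73 to 2.25), and their part in these values was not tested. Of the bulb neuron genes only 1, Gad1, whose sex difference is given above, reached a mean of 0.5 FPKM in VNO.

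In OB the values of Il25 were 0.238, 0.309 and 0.186 FPKM in SF, 0.326, 0.560 and 0.467 in SM, 0.231, 0.198 and 0.215 in CF and 0.369, 0.329 and 0.361 in CM. The means of 0.229 ± 0.0435 in females and 0.402 ± 0.0927 in males gave a log2 difference of -0.30 ± 0.06 (SE; adjusted p = 0.466 in limma) on 3 to 9 fragments a library. The summed olfactory sensory neuron genes in OB also separated the sexes within each housing, at 43.9 to 45.8 in SF and 46.3 to 49.8 in SM, and at 36.8 to 40.8 in CF and 44.1 to 53.8 in CM. Their part in the Il25 values was not tested.

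In MOE Gnat3 and Chat, both at low levels, had the smallest p-values between housings among the members, and neither passed the test. Gnat3 was 0.219, 0.434 and 0.468 FPKM in SF, 0.280, 0.296 and 0.399 in SM, 0.161, 0.228 and 0.0910 in CF and 0.283, 0.190 and 0.204 in CM. The groups overlapped in each sex, on 1.99 to 11 fragments a library. The means were 0.349 ± 0.0983 in sex-separated and 0.193 ± 0.0645 in sex-combined libraries. The mean housing difference was 0.29 ± 0.09 (SE) on the log2 scale (adjusted p = 0.826 in limma). Chat was 0.0897, 0.167 and 0.216 in SM and 0.0681, 0.0755 and 0.0268 in CM, without overlap (log2 difference 0.24 ± 0.08, adjusted p = 0.751 in limma). Its means were 0.158 ± 0.0635 and 0.0568 ± 0.0262. The added 0.5 exceeds all these values and makes the log2 differences smaller than the ratios of means imply. In the same fit the median of all genes was higher in SM than in CM by 0.12. For the mean housing difference that median was 0.08.

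**Figure D4:**
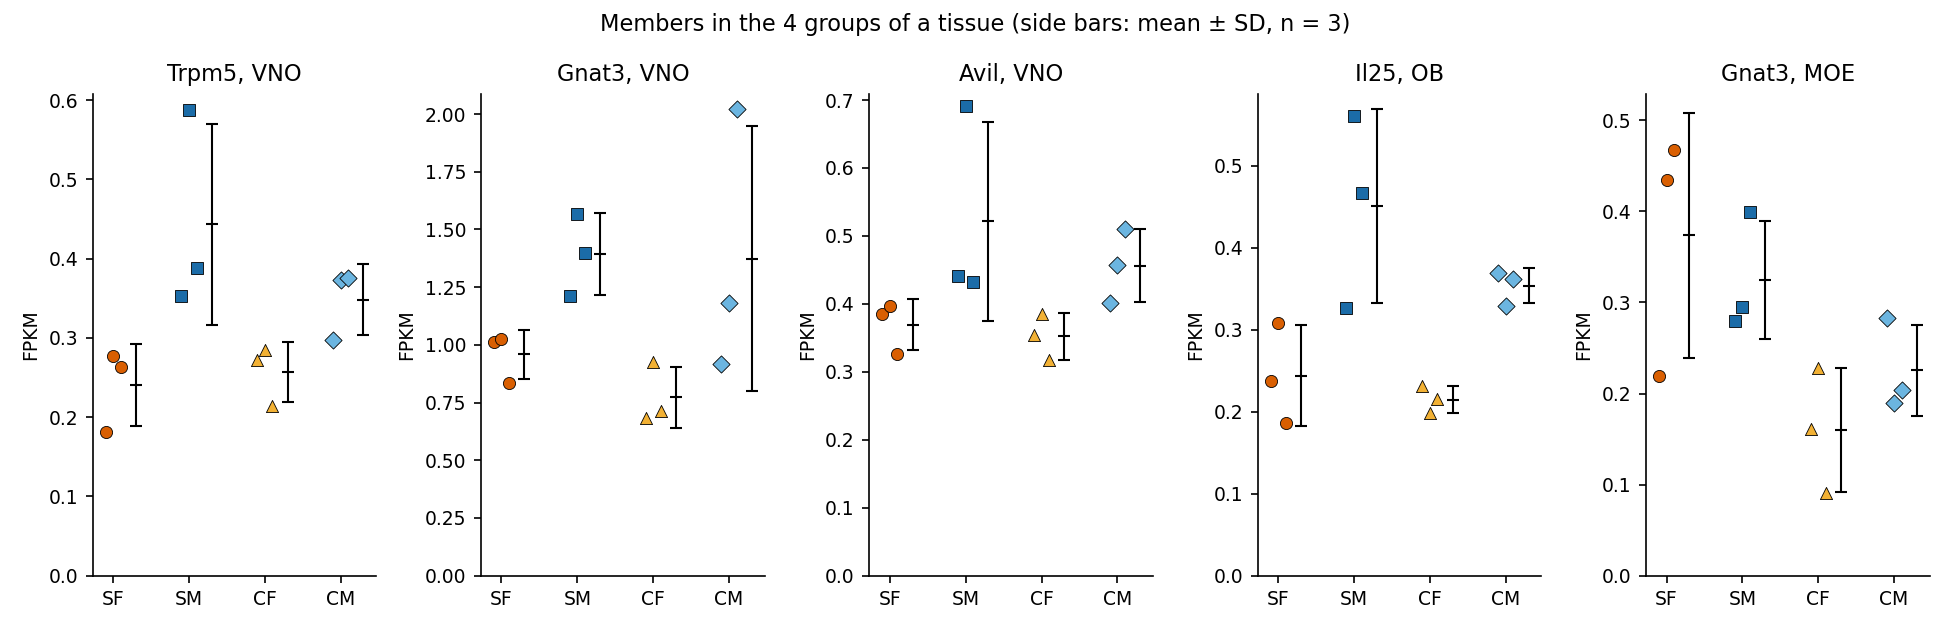
FPKM of 4 members in the groups SF, SM, CF and CM (one point per library, axis from 0) with the mean ± SD of 3 libraries beside them: Trpm5, Gnat3 and Avil in VNO, Il25 in OB and Gnat3 in MOE. Female libraries lay below male libraries in both housings for Trpm5, Avil and Il25, and none of these differences passed the adjusted threshold.

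Across the 12 libraries of a tissue some pairs of members varied together, and in MOE so did many other genes with Trpm5. Among 10 pairs in MOE and 3 in VNO, 4 pairs in MOE had an adjusted p under 0.05 in a two-sided permutation test. Pearson's r was 0.854 for Trpm5 and Ascl3 (p = 0.00099, adjusted p = 0.0129), 0.822 for Avil and Cftr, 0.802 for Ascl3 and Cftr (adjusted p = 0.0214 for both) and 0.766 for Trpm5 and Cftr (adjusted p = 0.0273, permutation tests). The median r of all genes with Trpm5 over these libraries, which differ in their summed fragments, was 0.670. No such median was computed for r with Ascl3, Avil or Cftr. The relations rested on a few libraries. Spearman's rho of the same pairs was 0.727, 0.434, 0.566 and 0.538 (permutation tests, adjusted p from 0.126 to 0.357). Without the 2 libraries farthest from the median, MOE-CM3 among them each time, r was 0.684, 0.261, 0.559 and 0.315, and no pair passed. As deviations from group means, with MOE-CM3 kept, the 4 pairs had an r of 0.803 to 0.889 (adjusted p at most 0.01004 in permutation tests). These tests shuffled the deviations across groups, although deviations within a group are not independent. Their p-values are therefore too small, and no call is drawn from them. Foxi1 had an r of -0.384 with Cftr, -0.381 with Ascl3 and -0.217 with Trpm5 (adjusted p from 0.296 to 0.602 in permutation tests). No pair in VNO passed (r = 0.516 for Gnat3 and Cftr, 0.416 for Gnat3 and Ascl3, and 0.0447 for Ascl3 and Cftr).

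The genes most like Trpm5 and Foxi1 were ranked by r over the same 12 libraries, as a description. Of 13763 genes in MOE the 5 with the highest r with Trpm5 were Sart1, Ranbp3, Tspyl4, Prdx6 and D11Wsu47e (0.945 to 0.955). Beside the median given above, Ascl3 ranked 896, Cftr 3813, Avil 8812 and Foxi1 13573. For Foxi1 the top 5 were Scarna3b, Mfsd13a, Inf2, Samd4b and Shf (0.764 to 0.796), beside a median of -0.204. Among the members Avil ranked 4493, Trpm5 7170, Ascl3 11124 and Cftr 11178 with Foxi1.

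In VNO, where the median r with Trpm5 was 0.202 over 13856 genes, the top 5 were Tprkb, Tas2r108, Wnt2b, Prkcd and Efcab11 (0.882 to 0.952). The bitter receptor Tas2r108 was second with an r of 0.913, or 0.817 without the library VNO-SM2, which had the highest level of both genes. Gnat3 ranked 292 (0.711) and Ascl3 303 (0.708), Cftr 6472 (0.227) and Foxi1 9535 (0.0264). For Foxi1 in VNO the top 5 were Abca6, Mettl18, Wee1, Cdc40 and Usp2 (0.776 to 0.836), beside a median of -0.129. Trpm5 ranked 4104, Ascl3 4339, Gnat3 5060 and Cftr 13299 (r = -0.570) with Foxi1.

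**Figure D5:**
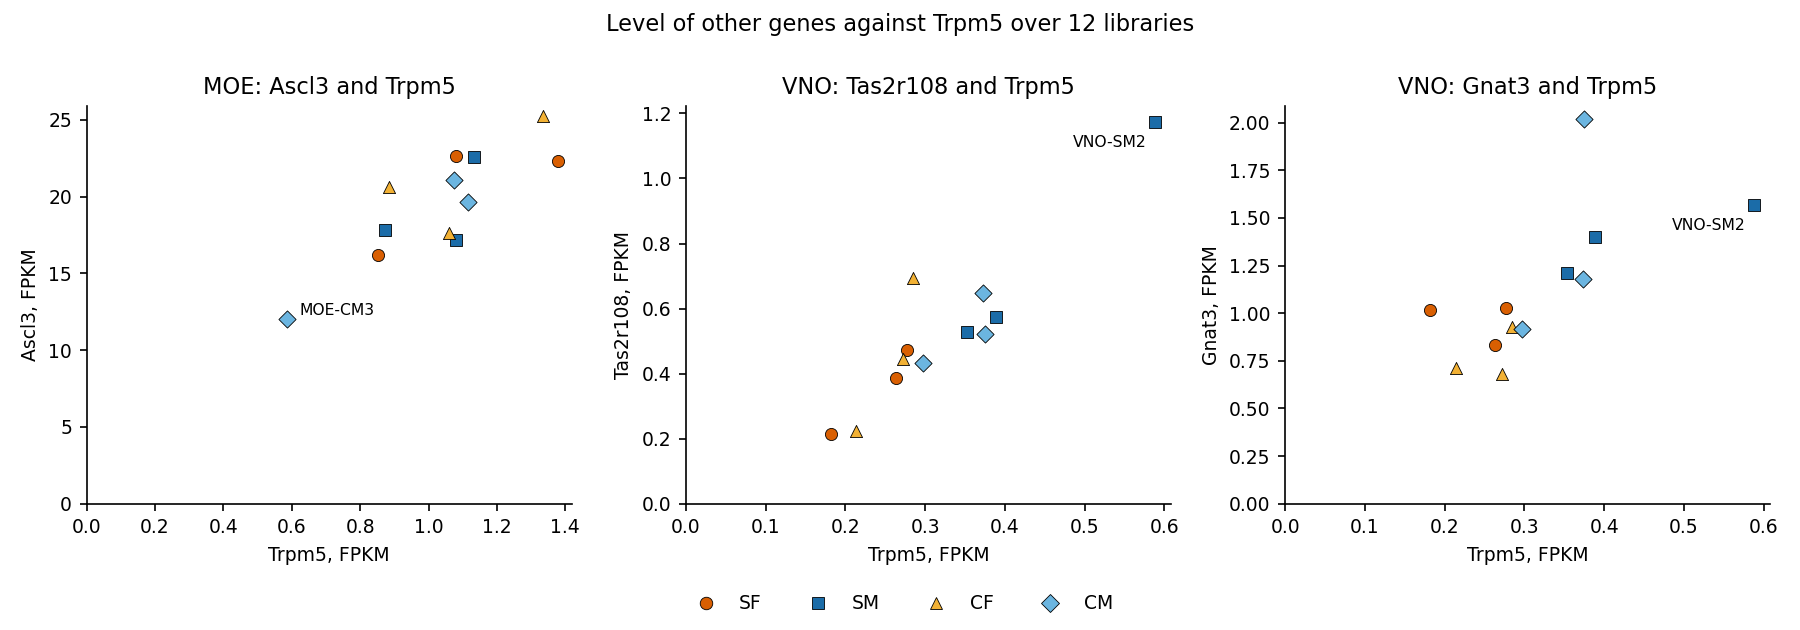
FPKM of Ascl3 in MOE, and of Tas2r108 and Gnat3 in VNO, against FPKM of Trpm5, with 1 point per library, symbols for the groups and the library farthest from the median of Trpm5 named. MOE-CM3 lies apart at low values of both genes, and VNO-SM2 lies apart at high values of Trpm5 and Tas2r108.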

How the data were processed

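Ribosome-depleted total RNA was sequenced in paired ends of 50 bases. Per the labels and the study's methods, the authors aligned reads with TopHat2 2.1.0 to mm9 and computed FPKM per RefSeq transcript with Cufflinks 2.2.1.0. The deposited FPKM values are normalised to transcript length and mapped fragments. Here accessions were mapped to symbols with RefSeq (99.7% of entries) and FPKM summed by symbol. Fragments were estimated as (FPKM/SD)², with SD a half-width of the deposited limits over 2, and cover counting error only.

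Log2(FPKM + 0.5) was tested with limma 3.58.1 (R 4.3.3, eBayes with trend), over 36 libraries and 12 groups between tissues and over 12 libraries and 4 groups within a tissue, keeping genes whose mean reached 0.5 FPKM, with Benjamini-Hochberg adjustment over all genes tested and a threshold of 0.05. The fit was repeated without this filter. Correlations used 100000 permutations and Benjamini-Hochberg adjustment over 13 pairs. The fits were tested on simulated data first. Alternatives were the pseudocount (0.1 or 1), upper quartile scaling, a replicate block, a fit to the 6 libraries of a contrast, and leaving out each library.

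All members were named, with the 3 most abundant genes of each list in the tissue of its highest median, every list gene called between sexes or housings, and the 5 genes most like Trpm5 and Foxi1. Other list genes were named after their values were seen. The members and lists were chosen with earlier results of these data known. Replicates are separate pools, but nothing says how cages were divided among them. Calhm3 and Sh2d6 were not analysed here.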

Additional observations from a re-analysis of the deposited data

How the results depend on the processing

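The direction of every member called between tissues held under the pseudocounts of 0.1 and 1, upper quartile scaling, the replicate block and each library left out. Without the filter the members called numbered 9 for MOE against VNO, 9 for MOE against OB and 8 for VNO against OB, in place of 3 each, because 9 members instead of 3 were tested. With each library left out 3 members were called in each comparison with the filter, and without it 8 to 9 for MOE against VNO, 9 for MOE against OB and 8 to 9 for VNO against OB. The VNO and OB difference of Chat passed at a pseudocount of 0.1 (0.26) and after upper quartile scaling (0.07), and in 6 fits with a library left out. Between sexes and housings 0 members were called under each alternative run, the replicate block and the 6 libraries compared included. Among the lists, dropping the filter moved the calls for transduction partners from 3 to 18 (MOE against VNO), 7 (MOE against OB) and 18 (VNO against OB), for tuft identity from 11 to 18 and from 12 to 19, for cholinergic genes against OB to 5 and 6, and for the type 2 axis against OB to 7 and 8, since more genes were tested. Upper quartile scaling left 1 cholinergic gene called between MOE and VNO in place of 3. For Trpm5 and Ascl3 in MOE rho was 0.727 and r without the 2 farthest libraries 0.684, for Trpm5 and Cftr 0.538 and 0.315, for Avil and Cftr 0.434 and 0.261, and for Ascl3 and Cftr 0.566 and 0.559, all short of the threshold in permutation tests. As deviations from group means Foxi1 and Cftr had an r of -0.676 (adjusted p = 0.0276, permutation test). That p-value has the limit given above for such deviations, and no call is drawn from it.

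Across tissues the deviations of same-numbered libraries had a mean r of 0.009 (6 of 36 pairs over 0.1), against -0.004 for other pairs (11 of 72). Within MOE and OB the mean r of same-numbered pairs was 0.027 and 0.003 (3 and 2 of 18 over 0.1). In VNO it was 0.067, with 8 of 18 pairs over 0.1, against -0.033 and 4 of 36 for other pairs. Not every pair passed 0.1, so the numbers were treated as names. That rule cannot decide whether same-numbered VNO libraries share a weaker structure, which was not tested. With the replicate block the members called stayed at 3 in each tissue comparison, or 9, 9 and 8 without the filter, and at 0 within tissues. Levels of at most 3 fragments limit any statement on the genes concerned. They held for Chat and Il25 in most libraries and for Pou2f3 in OB and some VNO libraries.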
